A study of Mus musculus with 8 samples.

Results

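The nutrient transporters of the blood-brain barrier are membrane carriers that bring glucose, lipids, amino acids, monocarboxylates and hormones across the endothelial cells of brain vessels. The set described here holds 10 carrier genes, chosen by symbol and matched to 10 of the 28732 genes in the deposited count table. RNA came from the cerebral cortex of adult mice, sampled at postnatal day 90 by the sample labels and at 12 to 14 weeks by the series text. The 4 knockout libraries (Tak1 cKO) were of genotype Cdh5-CreER::Tak1fl/fl and the 4 control libraries (Ctrl) of genotype Tak1fl/fl. All 8 libraries came from tamoxifen-treated mice, and both groups carry the floxed alleles of Tak1, the gene for the kinase TAK1 (official symbol Map3k7). Cdh5-CreER is a tamoxifen-inducible recombinase under the promoter of the endothelial cadherin gene, which is active in endothelial cells of all organs and not only of the brain. By the series text the controls were littermates, and the study's title concerns neuronal activity and the regression of vessels. Libraries are named by their number in the deposited table, knockouts 2 to 5 and controls 1 to 4, since the table does not say which titled sample each one is. Whether every library stands for its own animal is not stated, so the tests weigh differences against the spread of libraries, which may be technical.

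Brain endothelial cells are sealed by tight junctions, so polar nutrients reach the brain mainly through carriers in their membranes. Slc2a1 encodes GLUT1, the glucose carrier, and Mfsd2a encodes a carrier of lysophosphatidylcholine-bound fatty acids such as docosahexaenoic acid that also restrains vesicle traffic through the endothelium. Slc7a5 and Slc3a2 encode the light and heavy chains of the large neutral amino acid carrier LAT1, Slc7a1 a carrier of arginine and lysine, and Slc38a5 a carrier of glutamine and related amino acids. Slc16a1 encodes MCT1, a carrier of lactate and ketone bodies. Slco1c1 encodes a thyroxine carrier, Slco1a4 a carrier of bile acids and steroid conjugates, and Slc22a8 the organic anion carrier OAT3. Most of these genes are also used by other cells: Slc2a1 by astrocytes, Slc16a1 by oligodendrocytes, Slc22a8 by the choroid plexus, and Slc3a2 by nearly all cells.

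Promoter sequences are shown for the pair of genes with the largest rises, Slc2a1 and Mfsd2a, and for a pair of organic anion carriers, Slco1c1 and Slco1a4. The latter 2 lay below every control in knockouts 2, 3 and 5 but above every control in knockout 4. Neither was called lower with all 8 libraries (adjusted p = 0.179 and 0.750 in edgeR). The sequences are from RefSeq on GRCm38.p6, written 5′ to 3′ on the strand of the gene. They end just before the RefSeq start of transcription, or for Slc2a1 a few bases short of it. Slc2a1 is chr4:119108495-119108740 on the plus strand, Mfsd2a chr4:122961189-122961438 on the minus strand, Slco1c1 chr6:141524104-141524353 on the plus strand and Slco1a4 chr6:141856221-141856470 on the minus strand. Capitals mark ACGTG, the core of the hypoxia response element, or its reverse complement CACGT.
Slc2a1: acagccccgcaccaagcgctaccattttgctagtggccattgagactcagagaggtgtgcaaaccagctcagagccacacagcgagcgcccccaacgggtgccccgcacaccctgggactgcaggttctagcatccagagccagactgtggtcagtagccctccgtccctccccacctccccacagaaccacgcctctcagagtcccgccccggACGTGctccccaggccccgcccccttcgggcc
Mfsd2a: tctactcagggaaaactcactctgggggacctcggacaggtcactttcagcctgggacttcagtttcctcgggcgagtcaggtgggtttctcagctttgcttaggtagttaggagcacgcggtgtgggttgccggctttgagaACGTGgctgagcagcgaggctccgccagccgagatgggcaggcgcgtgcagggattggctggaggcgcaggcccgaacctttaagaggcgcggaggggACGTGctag
Slco1c1: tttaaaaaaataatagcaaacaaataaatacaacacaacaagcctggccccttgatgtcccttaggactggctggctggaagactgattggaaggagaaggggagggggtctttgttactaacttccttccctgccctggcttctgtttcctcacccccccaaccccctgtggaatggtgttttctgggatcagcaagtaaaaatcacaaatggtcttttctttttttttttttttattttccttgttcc
Slco1a4: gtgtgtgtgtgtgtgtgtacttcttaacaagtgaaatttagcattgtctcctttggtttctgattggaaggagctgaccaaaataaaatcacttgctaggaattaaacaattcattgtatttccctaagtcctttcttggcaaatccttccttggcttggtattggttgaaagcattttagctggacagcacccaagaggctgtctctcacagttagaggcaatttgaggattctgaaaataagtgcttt
The capitals stand once in the Slc2a1 stretch and 2 times in the Mfsd2a stretch, and in neither of the other sequences. The Slc2a1 stretch has 246 bases and stops short of the RefSeq start at 119108745. Its capitals span the start of the gene in the GENCODE annotation, 119108711. Over the full RefSeq windows of 300 bases, which run from 250 bases before to 50 after the start, ACGTG on either strand was found in 6 of the 9 members that had a window. Those were Slc2a1, Mfsd2a, Slc3a2, Slc38a5, Slc16a1 and Slco1c1, and 19.6% of all 32851 RefSeq windows hold it. The former counts genes and the latter windows, and base content was not matched, so enrichment was not tested. Slco1c1, Slc38a5 and Slc16a1 hold the E-box CACGTG, which contains ACGTG on both strands and stands in 7.15% of windows. In Slco1c1 it lies after the start and so outside the printed stretch. The TCF and LEF core CTTTGAA was found in Slc3a2 and in 1 of the 2 windows of Slc7a1, and in 5.14% of all windows. The windows of Slc2a1 and Mfsd2a had 18 and 22 CpG dinucleotides and those of Slco1c1 and Slco1a4 had 1 each, against a median of 7 over all windows. Slc16a1 had 42 and the 2 windows of Slc7a1 had 27 and 7, and neither gene was called changed. Slc3a2, which rose, had 15, while Slc38a5 had 10 and Slc22a8 had 1. Such matches describe the letters only.

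Each library held 13483354 to 17728963 counts assigned to genes. The mitochondrial ribosomal RNA gene mt-Rnr2 took 23.9% to 25.2% of counts in knockouts and 17.3% to 24.0% in controls. Values are CPM, the counts of a gene scaled to library size with TMM factors, and the test was edgeR's quasi-likelihood test across 15564 genes with Benjamini-Hochberg adjusted p and a threshold of 0.05. At this threshold 3.44% of the tested genes were called higher and 2.99% lower. Tak1 itself (Map3k7) was at 35.3 to 42.6 CPM in knockouts and 36.2 to 42.7 CPM in controls, a count over the whole gene in whole cortex that does not check the deletion. Of 24 endothelial markers listed, 22 were tested, 5 rose and 1 fell, and the summed level of the 23 in the table was 304 to 458 CPM in knockouts and 284 to 339 CPM in controls. The endothelial marker Cldn5 was not analysed here. The 15 tested markers of choroid plexus and ependyma summed to 671 to 867 CPM in knockouts, against 403 CPM in control 4 and 179 to 196 CPM in controls 1 to 3, and 8 of the 15 rose. The choroid plexus gene Ttr was at 351 to 513 CPM in knockouts, at 174 CPM in control 4 and at 5.74 to 9.35 CPM in the other controls. In bulk tissue, fewer cells of a type and less RNA per cell cannot be told apart.

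Of the 10 carriers, 9 passed the filter on low counts, and 3 of these rose: Slc2a1, Mfsd2a and Slc3a2. In edgeR 0 fell and 6 did not pass, with only Slco1c1 lower at an unadjusted p under 0.05, and DESeq2 called 0 lower. On simulated counts the edgeR procedure recovered 28.4% of genes changed 1.5-fold, so a carrier that did not pass may still have changed. Among all tested genes 3.44% were called higher and 2.99% lower. The median log2 fold change of the 9 carriers was 0.15, against -0.0021 over all tested genes. Knockout and control libraries did not overlap for these same 3 of 10 carriers, and for 16.2% of all tested genes.

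The glucose carrier Slc2a1 (ENSMUSG00000028645, chromosome 4, 119108711 to 119137983, GRCm38) was at 112, 79.9, 94.5 and 137 CPM in knockouts 2 to 5 and at 44.7, 39.2, 44.6 and 43.2 CPM in controls 1 to 4. Every knockout lay above every control, and the lowest knockout, number 3, was also the one with the lowest summed endothelial markers. The means were 106 ± 24.5 CPM in knockouts and 42.9 ± 2.59 CPM in controls (SD, n = 4 each). Slc2a1 rose 2.46-fold (log2 fold change 1.30 ± 0.15 SE, adjusted p = 0.00194 in edgeR). Knockouts spread more than controls, with a coefficient of variation of 23.2% in knockouts and 6.04% in controls. The antisense gene Gm12868 shares 105 exon bases (2.99%) with Slc2a1, and since the strand setting of the counting is not stated, its reads could not be told apart there.

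The lipid carrier Mfsd2a (ENSMUSG00000028655, chromosome 4, 122946850 to 122961188) was at 14.6, 15.04, 13.6 and 13.2 CPM in knockouts 2 to 5 and at 5.90, 5.84, 7.28 and 7.29 CPM in controls 1 to 4. The groups did not overlap, and the 4 knockouts lay close together, with a coefficient of variation of 6.22% in knockouts and 12.4% in controls. Mfsd2a rose 2.14-fold (log2 1.10 ± 0.15, adjusted p = 0.00333 in edgeR). Its order among knockouts was the reverse of that of Slc2a1 at the ends: knockout 3 was highest and knockout 5 lowest for Mfsd2a, while knockout 5 was highest and knockout 3 lowest for Slc2a1. Within a library, the log2 ratio of Slc2a1 to Mfsd2a counts averaged 2.88 ± 0.40 in knockouts and 2.71 ± 0.16 in controls. The difference of 0.17 was within the spread (exact permutation test, 2-sided, p = 0.486, smallest possible p 0.0286).

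Slc2a1 and Mfsd2a were also set against endothelial markers, of which 5 rose and 1 fell. Such a comparison cannot tell vessel content from expression per cell. The log2 CPM of Slc2a1 minus the mean log2 CPM of the 22 endothelial markers was 3.60 to 3.90 in knockouts and 2.70 to 2.77 in controls, and that of Mfsd2a was 0.52 to 1.32 in knockouts and -0.15 to 0.16 in controls. With the marker mean as a covariate in edgeR, the log2 fold change was 0.96 ± 0.12 for Slc2a1 (adjusted p = 0.0154) and 1.13 ± 0.18 for Mfsd2a (adjusted p = 0.0326). Choroid plexus markers moved with both genes, and their part in the rises was not tested. Astrocyte markers, relevant to Slc2a1, moved unevenly: of 14 tested, Gjb6 (log2 1.49, 36.1 ± 5.51 CPM in knockouts and 12.9 ± 2.15 CPM in controls), Agt (1.14) and Aldh1l1 (0.60) rose and Slc7a10 fell in edgeR, while DESeq2 called 4 higher and 1 lower. Their sum, 7383 to 8297 CPM in knockouts and 6787 to 7990 CPM in controls, consists mostly of Slc1a2 (5257 ± 409 CPM in knockouts and 5076 ± 387 CPM in controls). The part of astrocyte RNA in the rise of Slc2a1 was not tested. Control 4 had the most choroid plexus RNA among controls, at 174 CPM of Ttr against 351 to 513 CPM in knockouts. It was within the range of the other controls for Slc2a1 and at 7.29 CPM, next to 7.28 CPM in control 3, for Mfsd2a. This single library does not test the part of choroid plexus RNA in either rise.

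**Figure D1:**
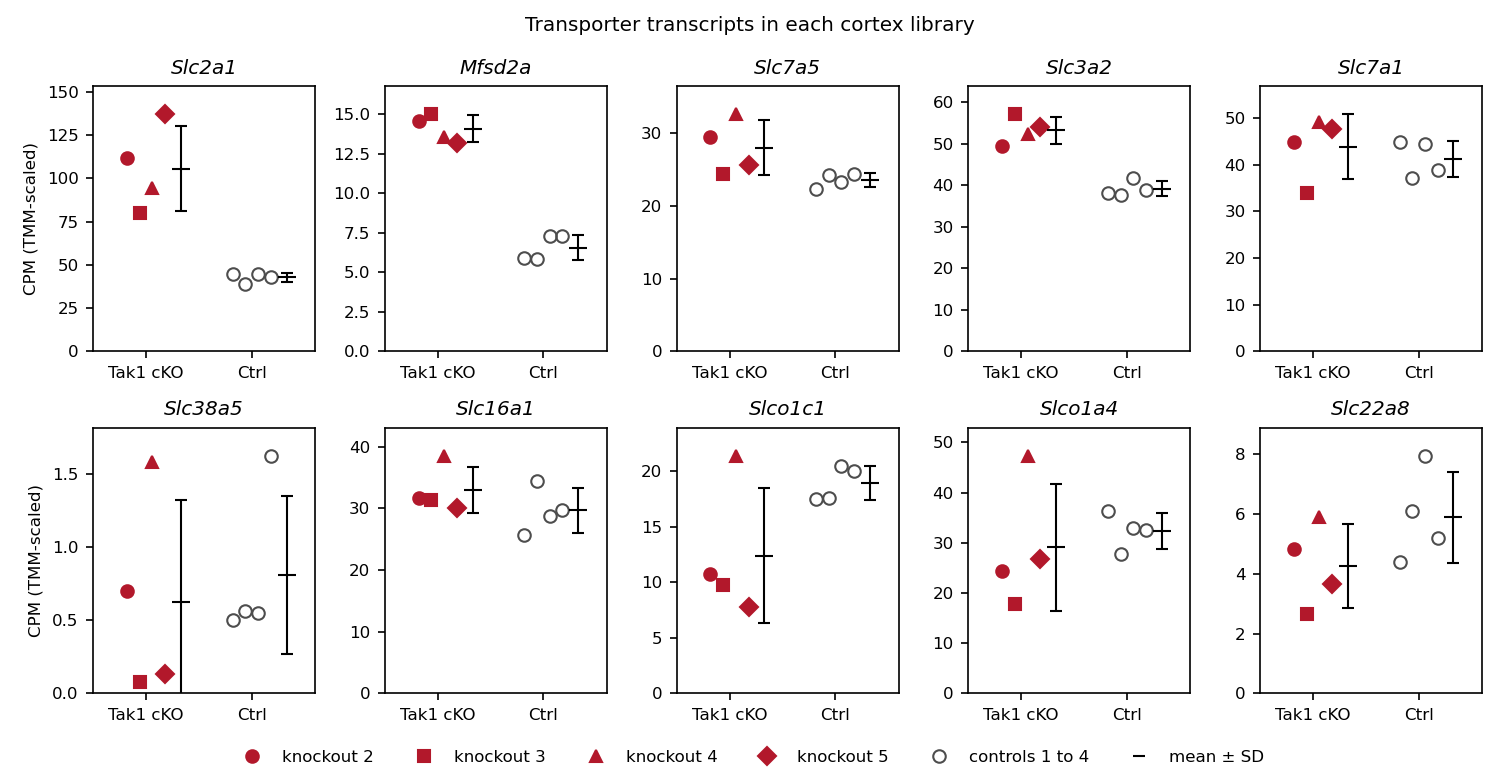
Level of each of the 10 carriers (CPM, TMM-scaled, linear axes from 0) in the 4 Tak1 cKO and the 4 control libraries. Points are libraries, and black bars are the mean ± SD, with bars that would pass below 0 ending at the axis. All knockouts lie above all controls for Slc2a1, Mfsd2a and Slc3a2, and knockout 4 (triangle) stands far above the other knockouts for Slco1c1 and Slco1a4.

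Among the amino acid carriers, the heavy chain gene Slc3a2 (ENSMUSG00000010095, chromosome 19, 8706882 to 8723369) rose and the light chain gene Slc7a5 (ENSMUSG00000040010, chromosome 8, 121881150 to 121907694) did not pass. Slc3a2 was at 49.5, 57.0, 52.2 and 54.0 CPM in knockouts 2 to 5 and at 38.2, 37.7, 41.6 and 38.9 CPM in controls 1 to 4. The groups did not overlap and the rise was 1.36-fold (log2 0.44 ± 0.10, adjusted p = 0.0235 in edgeR). It passed in neither the fit without knockout 5 (adjusted p = 0.0759) nor those without control 1 (0.0647) or control 2 (0.0934), nor with the endothelial marker mean as a covariate (0.0849). The log2 fold change was 0.43, 0.43, 0.42 and 0.49 in these 4 fits, close to the 0.44 with all libraries and no covariate. Relative to endothelial markers, the level of Slc3a2 overlapped between the groups, at 2.49 to 3.25 in knockouts and 2.55 to 2.65 in controls on the log2 scale.

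Slc7a5 was at 29.5, 24.4, 32.6 and 25.7 CPM in knockouts 2 to 5 and at 22.4, 24.2, 23.3 and 24.4 CPM in controls 1 to 4. Knockouts 2, 4 and 5 lay above all controls and knockout 3 lay within their range (log2 0.25 ± 0.12, adjusted p = 0.224 in edgeR). The log2 ratio of Slc7a5 to Slc3a2 counts within a library was -0.93 ± 0.26 in knockouts and -0.73 ± 0.09 in controls. The difference of -0.20 did not pass an exact permutation test (2-sided p = 0.257), and the ratio was lowest in knockouts 3 and 5.

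The arginine and lysine carrier Slc7a1 (ENSMUSG00000041313, chromosome 5, 148327410 to 148399904) was at 44.9, 33.9, 49.2 and 47.6 CPM in knockouts 2 to 5 and at 44.8, 37.2, 44.4 and 39.0 CPM in controls 1 to 4. Knockout 3 lay below all controls and the other knockouts above them (log2 0.09 ± 0.13, adjusted p = 0.726 in edgeR). The difference was -0.15 with the endothelial marker mean as a covariate, and between 0.04 (without control 2) and 0.21 (without knockout 3) when single libraries were left out; without control 4, knockout 4 or knockout 5 it was 0.06, 0.04 and 0.05. Slc38a5 (ENSMUSG00000031170, chromosome X, 8271133 to 8280179), the glutamine carrier, had only 12, 1, 27 and 2 counts in knockouts 2 to 5 and 7, 9, 10 and 24 counts in controls 1 to 4. It did not pass the filter on low counts. The exact 95% Poisson interval was 0.0253 to 5.57 counts for knockout 3, 0.242 to 7.22 for knockout 5 and 17.8 to 39.3 for knockout 4, intervals that cover counting error only. Knockouts 3 and 5 were thus far below knockout 4 for this gene beyond counting error, while the groups overlapped. Without the filter, its log2 fold change was -0.32 ± 0.70 (adjusted p = 0.871 in edgeR).

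The lactate and ketone body carrier Slc16a1 (ENSMUSG00000032902, chromosome 3, 104638668 to 104658462) was at 31.7, 31.4, 38.4 and 30.1 CPM in knockouts 2 to 5 and at 25.7, 34.5, 28.8 and 29.8 CPM in controls 1 to 4. Knockouts 2, 3 and 5 lay within the control range and knockout 4 above it (log2 0.15 ± 0.13, adjusted p = 0.509 in edgeR). Of 11 tested oligodendrocyte markers, relevant to this gene, Mal, Cldn11 and Mobp rose and Ermn and Sox10 fell in edgeR, with a median of -0.05 on the log2 scale. Their sum was 3545 to 4293 CPM in knockouts and 2921 to 3477 CPM in controls, carried by a few abundant genes such as Mobp (786 ± 225 CPM in knockouts and 424 ± 81.8 CPM in controls). Their part in the level of Slc16a1 was not tested. Without knockout 4 its log2 fold change was 0.07, without control 1 0.08 and without control 2 0.22.

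The 3 organic anion carriers had lower mean levels in knockouts than in controls, but none passed with all 8 libraries. The thyroxine carrier Slco1c1 (ENSMUSG00000030235, chromosome 6, 141524368 to 141570177) was at 10.7, 9.72, 21.3 and 7.74 CPM in knockouts 2 to 5 and at 17.5, 17.6, 20.4 and 20.0 CPM in controls 1 to 4. Knockouts 2, 3 and 5 lay below all controls and knockout 4 lay above all of them. The mean was 12.4 ± 6.08 CPM in knockouts and 18.9 ± 1.55 CPM in controls, with a log2 fold change of -0.61 ± 0.27 (adjusted p = 0.179 in edgeR). Without knockout 4, Slco1c1 fell by 0.999 on the log2 scale (SE 0.16, adjusted p = 0.00181 in edgeR), to 9.40 ± 1.52 CPM in knockouts 2, 3 and 5, against 18.9 ± 1.55 CPM in controls. Leaving out knockout 4 is 1 of 8 such fits and is quoted because its outcome differed, so its p is no separate evidence of a fall.

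Slco1a4 (ENSMUSG00000030237, chromosome 6, 141805440 to 141856199), the bile acid and steroid conjugate carrier, showed the same split. It was at 24.4, 17.8, 47.2 and 26.8 CPM in knockouts 2 to 5 and at 36.4, 27.7, 32.9 and 32.6 CPM in controls 1 to 4. Knockouts 2, 3 and 5 lay below all controls and knockout 4 above all of them (log2 -0.15 ± 0.25, adjusted p = 0.750 in edgeR). Without knockout 4 the log2 fold change was -0.48 ± 0.16 (adjusted p = 0.0598), and without knockout 3 it was 0.0325. Reads of close Slco1a paralogs could be shared with Slco1a4, and of these Slco1a5 had 0 to 5 counts in any library. Between Slco1c1 and Slco1a4, the log2 count ratio was -1.25 ± 0.39 in knockouts and -0.78 ± 0.19 in controls. The difference of -0.48 gave p = 0.0571 in the exact permutation test (2-sided), and adjusted over the 3 ratios compared the values were 0.171 for this ratio, 0.386 for Slc7a5 over Slc3a2 and 0.486 for Slc2a1 over Mfsd2a.

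The organic anion carrier Slc22a8 (ENSMUSG00000063796, chromosome 19, 8591254 to 8611835) was at 4.84, 2.66, 5.91 and 3.66 CPM in knockouts 2 to 5 and at 4.39, 6.09, 7.93 and 5.19 CPM in controls 1 to 4. Knockouts 3 and 5 lay below all controls and knockouts 2 and 4 within their range (log2 -0.46 ± 0.26, adjusted p = 0.282 in edgeR). The log2 fold change was smaller without knockout 3 (-0.285) or control 3 (-0.286). Choroid plexus uses this gene and its marker sum was higher in every knockout than in any control, and its part in the level of Slc22a8 was not tested. Control 4, with 174 CPM of Ttr, had 5.19 CPM of Slc22a8, between the other controls, but this single library does not test the part of choroid plexus.

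**Figure D2:**
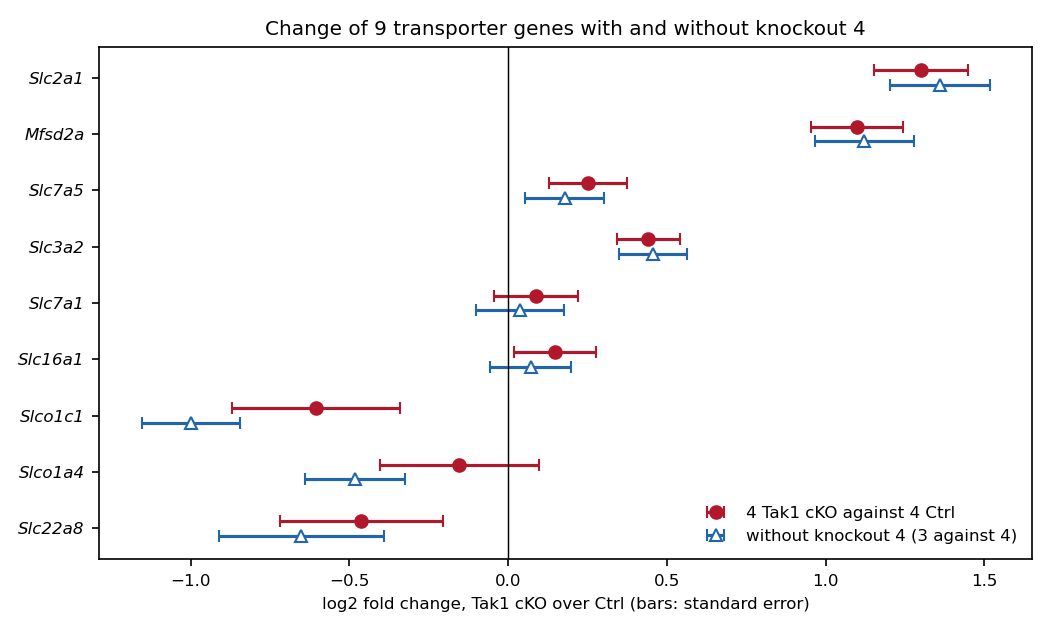
Log2 fold change of Tak1 cKO over Ctrl with its standard error for the 9 carriers that passed the filter, from edgeR with all 8 libraries (circles) and without knockout 4 (triangles). Slc2a1, Mfsd2a and Slc3a2 hardly move between the fits, while Slco1c1 is at -0.61 with knockout 4 and at -0.999 without it.

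The carriers therefore differed in how evenly the 4 knockouts behaved. Knockout 4 was the highest knockout for 7 of the 10 carriers and knockout 3 the lowest for 6 of 10. Among all tested genes knockout 4 was highest in 30.1% and knockout 3 lowest in 30.4%. The 7 were Slc7a5, Slc7a1, Slc38a5, Slc16a1, Slco1c1, Slco1a4 and Slc22a8, and the exceptions were the 3 carriers that rose. Coefficients of variation among knockouts were 49.2% for Slco1c1 and 43.6% for Slco1a4, against 8.19% and 11.0% among controls, while Slc3a2 had 5.98% in knockouts and 4.47% in controls. Leaving out knockout 4, no overlap was left in 5 of 10 carriers, namely the 3 that rose, Slco1c1 and Slco1a4, and in 26.6% of all tested genes. In that fit 6.40% of tested genes were called higher and 6.60% lower.

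Endothelial markers were compared with the organic anion carriers library by library. Mean log2 CPM of the endothelial markers was 3.14, 2.59, 2.96 and 3.19 in knockouts 2 to 5 and 2.59 to 2.75 in controls. Knockout 5 thus had the highest endothelial markers and, together with knockout 3, the lowest Slco1c1. Relative to these markers, Slco1c1 was at 0.28, 0.69, 1.45 and -0.24 in knockouts 2 to 5 and at 1.42 to 1.62 in controls on the log2 scale. Slco1a4 was at 1.47, 1.57, 2.60 and 1.55 in knockouts and at 2.20 to 2.48 in controls on the same scale. With the marker mean as a covariate in edgeR, the log2 fold change was -0.56 ± 0.39 for Slco1c1 (adjusted p = 0.471), -0.41 ± 0.34 for Slco1a4 (0.553) and -0.77 ± 0.35 for Slc22a8 (0.268). None passed, and the differences were larger than without the covariate for Slco1a4 and Slc22a8 and about the same for Slco1c1.

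**Figure D3:**
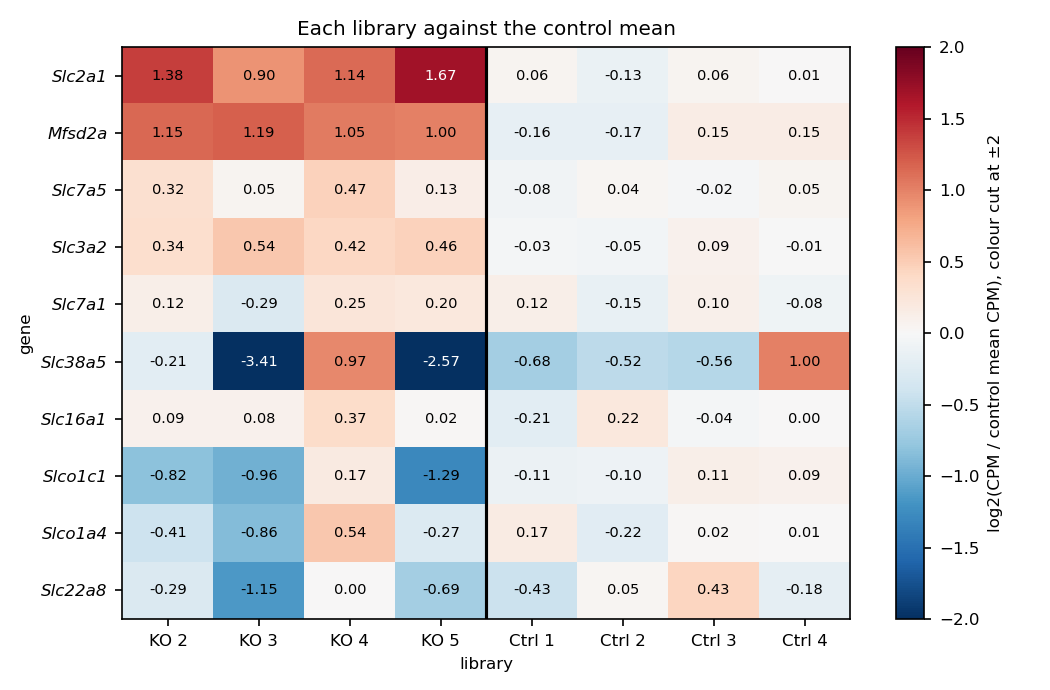
Log2 of each library's CPM over the mean CPM of the 4 controls, for the 10 carriers (rows) and 8 libraries (columns, knockouts left of the line and controls right). Slc2a1, Mfsd2a and Slc3a2 are above the control mean in every knockout, and Slco1c1 and Slco1a4 are below it in knockouts 2, 3 and 5 and above it in knockout 4. Slc38a5 has the same signs in knockouts, but its controls are split too. Controls 1 to 3 are at -0.68, -0.52 and -0.56 and control 4 is at 1.00.

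Levels of different carriers were compared per kilobase of exon (CPM per kb). Slc2a1 was the highest at 30.2 ± 6.99 in knockouts and 12.2 ± 0.739 in controls, followed by Slc3a2 at 15.1 ± 0.900 in knockouts and 11.1 ± 0.496 in controls. The ranges of Slc2a1 and Slc3a2 overlapped in controls but not in knockouts. Slc16a1 and Slc7a5 came next and overlapped each other in both groups. Mfsd2a had rank 5 of the 10 in knockouts, at 6.27 ± 0.390, and rank 8 in controls, at 2.92 ± 0.363. Slc22a8 and Slc38a5 were the lowest in both groups, at 1.09 and 0.278 in knockouts and 1.51 and 0.361 in controls.

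**Figure D4:**
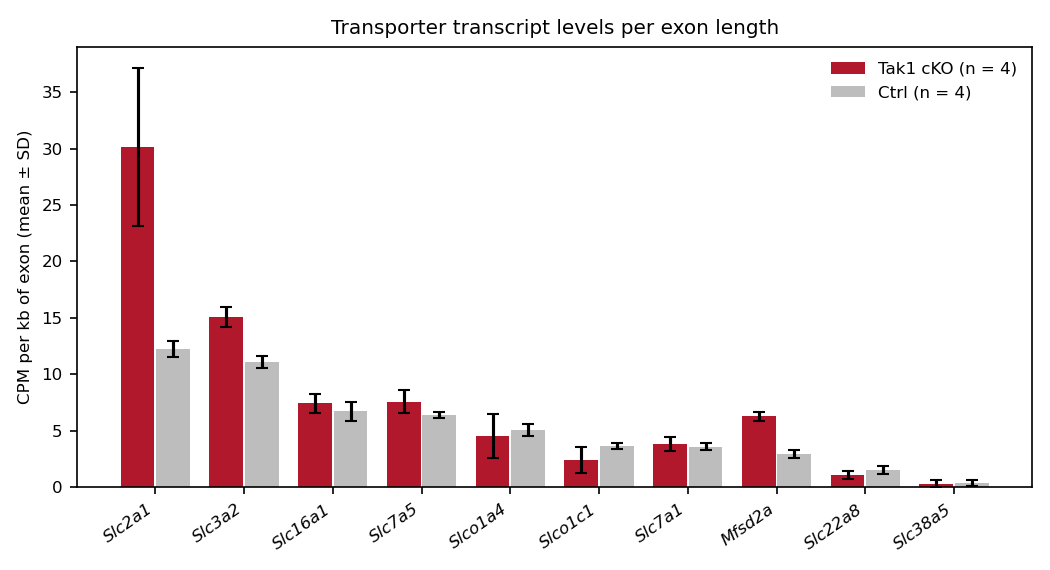
Mean level of each carrier per kilobase of exon (CPM per kb, bars start at 0, error bars are the SD of 4 libraries) in Tak1 cKO (left bar of each pair) and Ctrl (right bar), ordered by the control level. Slc2a1 is at 30.2 in knockouts and 12.2 in controls, and Mfsd2a is at 6.27 in knockouts and 2.92 in controls.

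Relatives of the carriers were called in both directions. Of 64 other genes in the table from the same families, 45 were tested, 3 rose and 3 fell. The shares over all tested genes were 3.44% higher and 2.99% lower. The other 39 were not called, and the median over the 45 was 0.23 on the log2 scale. At an unadjusted p under 0.05, 11 were higher and 4 lower, and DESeq2 called 6 higher and 3 lower. Without knockout 4 edgeR called 5 relatives higher and 7 lower, against 6.40% and 6.60% of all tested genes. The risers were Slc3a1, the heavy chain of a cystine and dibasic amino acid carrier (2.62 ± 0.53, adjusted p = 0.0159, at 1.55 CPM in knockouts and 0.254 CPM in controls), the glucose carrier Slc2a12 (0.97 ± 0.25, adjusted p = 0.0389) and Slc16a14 (0.70 ± 0.19, adjusted p = 0.0456), all in edgeR. Slc16a14 ranks below the 5 smallest p-values and is named to complete the count, with its value known. The astrocyte amino acid carrier Slc7a10 (-0.76 ± 0.14, adjusted p = 0.0135), Slc38a10 (-0.45 ± 0.12, adjusted p = 0.0370) and Slco4c1 (-0.76 ± 0.20, adjusted p = 0.0426) fell.

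Of 29 other carriers and uptake receptors of brain endothelium, 27 were tested and only Slc27a1 rose. Over all tested genes 3.44% were called higher and 2.99% lower. Slc27a1 encodes the fatty acid transport protein FATP1 and was at 22.3, 25.0, 21.7 and 26.9 CPM in knockouts 2 to 5 and at 13.7, 14.3, 18.4 and 15.1 CPM in controls 1 to 4. The groups did not overlap (0.64 ± 0.14, adjusted p = 0.0200 in edgeR). In edgeR 0 fell, with 3 lower at an unadjusted p under 0.05, and DESeq2 called 2 higher and 1 lower. The median was -0.03. Without knockout 4, 1 of the 27 rose and 3 fell, against 6.40% and 6.60% of all tested genes. The same 3 carriers as here had an adjusted p under 0.05 in the authors' deposited table, at 2.17e-11 for Slc2a1, 3.16e-08 for Mfsd2a and 0.00213 for Slc3a2, with 0.110 for Slco1c1.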

How the data were processed

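RNA-seq counts of 8 mouse cortex libraries were used, 4 Tak1 cKO and 4 Ctrl. The submitters' processing notes name FastQC, HISAT, HISAT2, featureCounts, DESeq2 and the build GRCm38. Versions, annotation and strand setting are not given in the sources used here, and the labels name a ChIP-seq library kit. Counts per gene are whole numbers deposited by the authors without normalization. The signal column (baseMean) deposited by the authors is the mean of size-factor-scaled counts, per the file headers. The log2 fold change with its error, the score (the fold change divided by its error) and the p-value columns were deposited by the authors from DESeq2, per the file headers.

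Of 29012 lines, 280 repeats of 87 gene IDs, all with identical counts, were removed, leaving 28732 genes. Positions and exon lengths came from GENCODE M21 (28682 IDs matched). Genes passing edgeR's filterByExpr (15564 kept, 13168 removed) were TMM-scaled, and the robust quasi-likelihood F test of edgeR was run without covariates, with Benjamini-Hochberg adjustment over all tested genes. Standard errors were derived from the F statistic, and for the endothelial marker mean a prior count of 2 was added before taking log2 CPM. Ratios of counts were tested with exact permutation tests over 70 arrangements. Pairs of libraries within a group differed by 3.53 to 19.0 times counting noise (median chi-square over its expectation), so none was treated as a duplicate. The members and lists were chosen with earlier results of these data known. All 10 members are described. Of other lists, up to 5 genes with the smallest p among those that passed are named. Alternatives were DESeq2 size factors, upper-quartile factors, no filter, 1 CPM in at least 4 libraries, DESeq2, limma voom, a threshold of 0.1, glmTreat at 1.2-fold, the endothelial covariate and leaving out each library. A fit of the columns that share a number between groups, with and without the number as a block, was added after seeing the data. For the ratios a pseudocount of 1 was tried. A test of the edgeR procedure on simulated counts found 68.7% of genes changed 2-fold, against 28.4% of genes changed 1.5-fold. Depth was 13483354 to 17728963 counts per library. Software comprised edgeR (4.0.16), DESeq2 (1.42.0) and limma (3.58.1) in R (4.3.3), with figures from matplotlib (3.10.9) in Python (3.11.15).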

Additional observations from a re-analysis of the deposited data

Results flagged for a closer look

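The glutamine carrier Slc38a5 stood at 1.62 CPM in control 4, far above the 0.503 to 0.565 CPM of the other controls. The gap made up 0.945 of the range of the control group, above Dixon's 95% critical value for 4 samples. It was the only such value among 20 groups examined, and chance gives about 1 in 20. It rests on 24 counts in control 4 against 7 to 10 in the other controls. Control 4 also had the most Ttr among controls, and the part of this in Slc38a5 was not tested.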

How the results depend on the processing

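Of 159 fits of single carriers under the alternatives, 149 kept the sign and the side of the threshold. Part of this count was fixed beforehand. The threshold of 0.1 reuses the main fit, so signs and called carriers could not change there. The test against a 1.2-fold change is stricter, so it could hardly add a call. Slc2a1 (log2 0.96 to 1.43, adjusted p 2.17e-11 to 0.0154) and Mfsd2a (1.04 to 1.15, adjusted p 3.16e-08 to 0.0326) passed in all 17 alternatives that use at least 7 libraries. Slc3a2 (0.42 to 0.49, adjusted p 0.00213 to 0.187) lost its call in 5 of 17, among them the test against a 1.2-fold change (0.187). Slc7a1 changed sign with the endothelial covariate (-0.15). Leaving out single libraries gave -0.48 to 0.0325 for Slco1a4 and -0.47 to 0.0396 for Slc38a5, with signs turned without knockout 3 (0.0325 and 0.0396) and, for Slc38a5, also without knockout 5 (0.0155). For Slc38a5 this range lacks the fits without knockout 2, knockout 4 (27 counts) or control 4 (24 counts), where it failed the filter. The number of carriers called lower was 0 to 1 over these fits, with Slco1c1 (-0.999) the one called without knockout 4. The cause was not tested. Over all genes, 535 were called higher and 466 lower. The counts were 821 and 745 with no filter, 909 and 835 in DESeq2, 1108 and 1075 at an adjusted p of 0.1, 150 and 48 against a 1.2-fold change and 65 and 18 with the endothelial covariate. Leaving out single libraries gave 93 to 1012 higher and 35 to 1043 lower, the lowest without control 2 and the highest without knockout 4, and leaving out control 1, control 3, knockout 2 or knockout 5 also cut both counts by over 1.5 times. None of the 3 ratio differences passed under any alternative and none changed sign, but their size rests on single libraries: Slc2a1 over Mfsd2a was 0.00066 without knockout 5 and 0.32 without knockout 3, Slco1c1 over Slco1a4 was -0.29 without knockout 5 and Slc7a5 over Slc3a2 was -0.10 without knockout 3. Upper-quartile factors moved the median of all genes to 0.03. Low counts limit Slc38a5 (1 to 27 per library). The sample titles share no replicate number between groups, but the table's columns share the numbers 2, 3 and 4, and a fit with these numbers as a replicate block was added after seeing the data. Same-numbered libraries deviated from their group means with correlations of 0.012, -0.21 and 0.22, and differently numbered ones with -0.17 to 0.18. These values cannot settle whether the numbers pair the samples. With these 6 libraries and no block, edgeR called 13 genes higher and 0 lower (1233 and 1064 at an unadjusted p under 0.05), 1 of them a carrier, Slc2a1. With the block it called 3 higher and 0 lower (1125 and 1177) and 0 carriers, while Slc2a1 stayed at 1.16 (adjusted p = 0.0519) and Mfsd2a at 1.09 (0.0722).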

Other observations

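Beside the carriers, 3 genes whose products take part in amino acid sensing or its control were higher in knockouts. Of 14 tested genes of the amino acid response and of inputs to the growth kinase complex mTORC1, 3 rose in edgeR and 11 were not called. The shares over all tested genes were 3.44% higher and 2.99% lower. None was called lower in edgeR or DESeq2, and 1 was lower at an unadjusted p under 0.05. Without knockout 4, edgeR called 3 higher and 2 lower, against 6.40% and 6.60% of all tested genes. The median over the 14 was 0.06 on the log2 scale. The arginine sensor gene Castor1 was at 1.77 ± 0.239 CPM in knockouts and 0.423 ± 0.122 CPM in controls (2.06 ± 0.35, adjusted p = 0.00888 in edgeR). Sesn1 was at 58.7, 57.9, 37.5 and 65.0 CPM in knockouts 2 to 5 and at 25.7 to 31.4 CPM in controls (0.97 ± 0.16, adjusted p = 0.00760). Sesn2, whose product senses leucine, was at 5.83, 6.45, 3.75 and 8.82 CPM in knockouts and at 2.16 to 2.95 CPM in controls (1.22 ± 0.25, adjusted p = 0.0175). Knockout 4 was the lowest knockout for all 3 genes and still lay above every control.

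Wnt and beta-catenin signalling maintains the carrier repertoire of brain endothelium. Of 22 tested genes of that pathway, 1 rose and 1 fell, against 3.44% and 2.99% of all tested genes. The other 20 were not called, and the median over the 22 was -0.0010 on the log2 scale. At an unadjusted p under 0.05, 1 was higher and 5 lower, and DESeq2 called 1 higher and 4 lower. The receptor gene Fzd4 was at 16.3 ± 1.84 CPM in knockouts and 10.6 ± 0.284 CPM in controls (0.61 ± 0.13, adjusted p = 0.0205 in edgeR). The ligand gene Wnt7a was at 3.16 ± 0.303 CPM in knockouts and 6.72 ± 1.73 CPM in controls (-1.09 ± 0.21, adjusted p = 0.0141). Without knockout 4, 1 gene of the pathway rose and 4 fell, against 6.40% and 6.60% of all tested genes.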
